A study of Homo sapiens with 6 samples.

Results

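Transcripts of 6 matrix metalloproteinase (MMP) genes and of the 4 tissue inhibitors of metalloproteinases (TIMPs) were followed in fibroblasts captured in mitosis with or without induction of oncogenic Ras. The members were the rows of the deposited expression table whose symbol was MMP1, MMP2, MMP3, MMP10, MMP14, MMP16, TIMP1, TIMP2, TIMP3 or TIMP4, which gave 10 genes of the 63009 read. MMP3 stood in 2 rows, and the one with the higher mean was kept. The other, on an alternate assembly patch, was listed at 0 in every library. RNA-seq was run on 6 libraries of ERRAS cells, which are early passage IMR90 human lung fibroblasts carrying, through a retrovirus, oncogenic H-RasV12 fused to the ligand-binding domain of the estrogen receptor. In 3 libraries the cells had received 100 nM tamoxifen for 4 days (Ras-induced mitotic cells), and in the other 3 they had not (control mitotic cells). The dose is that of the labels, and the study's general methods give a different one, by mass, for 4-hydroxytamoxifen. Both groups were grown in serum and G418 at low oxygen, and both were then arrested with 1 µM Dimethylenastron (DME), an inhibitor of the mitotic kinesin Eg5. Only the cells that had detached were collected, so the values describe rounded, drug-arrested cells of one fibroblast strain. The oncogene was a fusion protein switched on by its ligand, and the controls carried the same construct. The series held no tamoxifen-treated cells without the construct, so effects of the drug itself and of Ras cannot be told apart. The oligo-dT library kit does not mark strand.

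MMPs are zinc-dependent proteases that are made as inactive precursors and cut collagens and other proteins of the extracellular matrix once the precursor is opened. TIMPs are small secreted proteins that block the catalytic zinc. Fibroblasts are a main source of both, and MMP1 and MMP3 are known as products of the secretory phenotype of senescent fibroblasts.

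Expression was given as FPKM, fragments per kilobase of transcript scaled to the mapped fragments of a library. The scale is per length, so levels of different genes can be set side by side, but only roughly where genes overlap and share reads. Read counts were not used here. From the steps between low values, the depth of the 6 libraries lay between 0.846 and 1.17 of that of the first control library. HRAS, for which reads of the construct and of the cells' own gene are counted together, measured between 1140 and 1176 FPKM in control and between 1439 and 1847 FPKM in Ras-induced libraries. All 8 fibroblast markers examined were expressed in every library, and their summed level was between 4590 and 5117 FPKM in control and between 3112 and 4235 FPKM in Ras-induced libraries. All Ras-induced libraries lay below all controls for 4 of them and above for 1 (12.8% and 27.1% of all tested genes), and 3 overlapped. In the mean COL1A1 went from 1345 to 550 FPKM, COL1A2 from 924 to 379 FPKM, VIM from 2149 to 2248 FPKM and FAP from 39.0 to 66.3 FPKM. Of 5 leukocyte markers only CD68 was over 1 FPKM, with PTPRC at or near 0, and of 5 endothelial markers only TEK was, with PECAM1 at 0. TEK carried the endothelial sum, which was between 14.5 and 16.5 FPKM in control and between 4.81 and 5.41 FPKM in Ras-induced libraries (TEK log2 fold change -1.45, adjusted p = 0.00126 from limma). The summed level of 5 epithelial markers, KRT5 and KRT14 above all, was between 22.7 and 36.2 FPKM in control and between 21.8 and 25.5 FPKM in Ras-induced libraries. CDH1 stayed under 1 FPKM, and CLDN4 lay between 2.26 and 7.32 FPKM. EPCAM, too low to be tested, measured 1.05, 0.880 and 1.80 FPKM in control and 0.272, 0.167 and 0.424 FPKM in Ras-induced libraries. The 8 mitotic markers summed to between 1871 and 1951 FPKM in control and between 1514 and 1683 FPKM in Ras-induced libraries. For 7 of the 8 all Ras-induced libraries lay below all controls (12.8% of all tested genes). At an adjusted p of 0.05 or less from limma, 4 were lower (5.67% of all tested genes), namely PLK1, CENPF, TPX2 and BUB1. The part of these differences, and of those in the other markers above, in the results below was not tested. In bulk RNA, fewer cells that express a gene and less RNA per cell cannot be told apart.

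Ras-induced mitotic cells held far more MMP1 transcript than control mitotic cells, more MMP14, MMP16 and TIMP1, and less TIMP2. Levels of MMP2, MMP3, MMP10 and TIMP3 did not pass the test, and TIMP4 was too low to enter it. Genes averaging 1 FPKM or more over the 6 libraries were compared on log2(FPKM + 1) with limma, two-sided, and called altered where the p-value, adjusted by Benjamini-Hochberg over all 13993 genes tested, was 0.05 or less. Fold changes are on that scale, which understates the change of low genes. Of the 10 members 9 passed the filter, and 5 of these were altered, where 16.7% of all tested genes were. Of these, 4 were higher, against 11.0% of all tested genes, and 1 was lower, against 5.67%. Over all tested genes that balance depended on scaling, with 1543 higher and 793 lower as deposited, 1044 and 1109 after quantile normalization and 921 and 1101 after upper-quartile scaling, while the members gave 4 higher and 1 lower each time. The median log2 fold change of the 9 genes was 0.59, and that of all tested genes was 0.10.

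**Figure D1:**
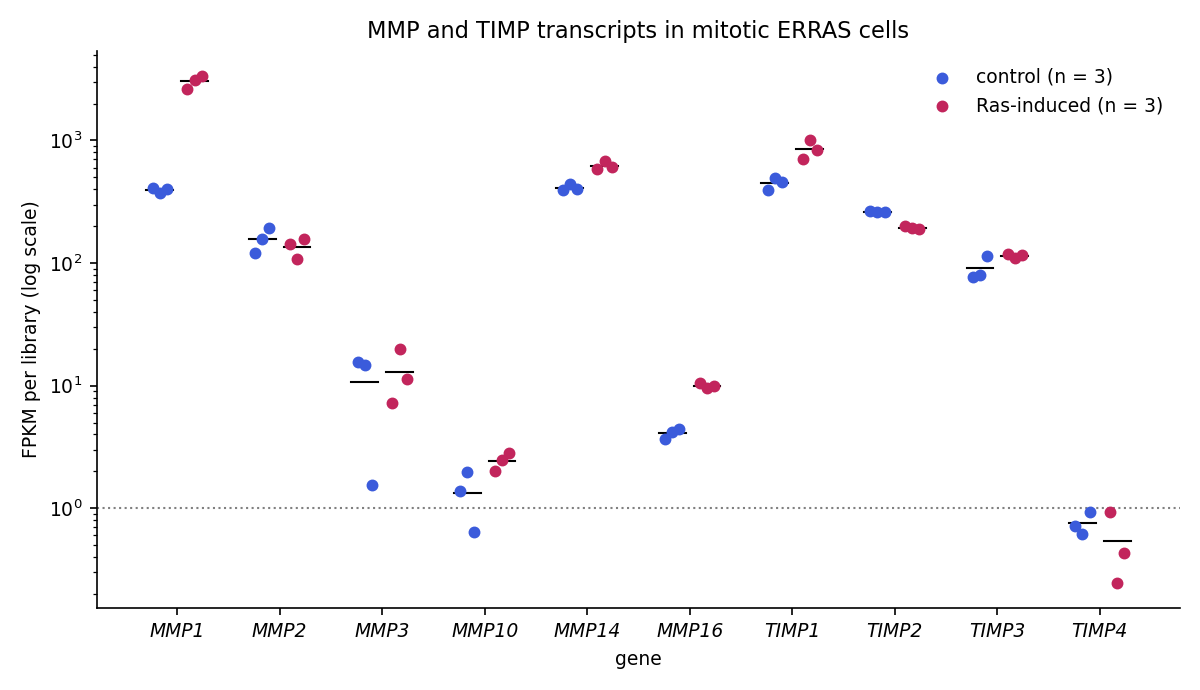
FPKM of each member in each library on a log axis, with control libraries in blue, Ras-induced libraries in red, black bars for the mean of 3 libraries and a dotted line at 1 FPKM. MMP1 moves from about the level of MMP14 and TIMP1 to above every other member, TIMP2 moves down with tightly grouped libraries, and MMP3 has 1 control library far under the others.

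MMP1 (ENSG00000196611, chromosome 11 of GRCh37 from 102660132 to 102668891, minus strand) encodes interstitial collagenase, which cuts fibrillar collagen. Its level was 407.9, 372.8 and 401.1 FPKM in the control libraries and 2630, 3139 and 3348 FPKM in the Ras-induced libraries. Every Ras-induced library was far above every control library, and the replicates of each group lay close together. The control mean was 394.0 ± 18.6 FPKM (SD, n = 3) and the Ras-induced mean 3039 ± 369.5 FPKM (SD, n = 3), which is 7.71 times as high. Its log2 fold change was 2.94 (SE, the standard error, 0.11, limma adjusted p = 0.00012), the 44th largest rise of the 13993 genes. Among all 63009 genes it stood between rank 209 and rank 238 by FPKM in control libraries. In Ras-induced libraries it stood at rank 2 or 3. It was called under all 13 alternative settings, with log2 fold changes between 2.83 and 3.04.

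MMP14 and MMP16 encode membrane-type MMPs, proteases that are held at the cell surface and cut matrix next to the cell. MMP14 (ENSG00000157227, chromosome 14 of GRCh37 from 23305769 to 23318250, plus strand), which also activates the precursor of MMP2, measured 391.7, 442.7 and 398.8 FPKM in control and 584.9, 681.2 and 601.5 FPKM in Ras-induced libraries. The groups did not overlap. The rise had a log2 fold change of 0.60 (SE 0.09, limma adjusted p = 0.0099), with a ratio of means of 1.51. It missed the threshold when control library 1 was left out (log2 fold change 0.56, adjusted p = 0.0535 from limma). MMP16 (ENSG00000156103, chromosome 8 of GRCh37 from 89044239 to 89340254, minus strand) was expressed at a much lower level, with 3.66, 4.20 and 4.40 FPKM in control and 10.4, 9.63 and 9.88 FPKM in Ras-induced libraries. Its libraries agreed closely within each group, and each Ras-induced value was more than the highest control value. The log2 fold change was 1.11 (SE 0.10, limma adjusted p = 0.00259), a ratio of means of 2.44, and the call held under all 13 alternatives. A long noncoding RNA on the opposite strand, RP11-586K2.1, overlaps the first part of MMP16 and shares 118 exonic bases with it. It was listed at 0.185 to 0.890 FPKM in control and at 1.20 to 1.80 FPKM in Ras-induced libraries, and without strand the reads of the shared bases cannot be told apart.

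MMP2 (ENSG00000087245, chromosome 16 of GRCh37 from 55423612 to 55540603, plus strand) encodes gelatinase A, which cuts denatured collagen and the type IV collagen of basement membranes. It measured 121.5, 156.0 and 191.8 FPKM in control and 142.4, 107.0 and 157.8 FPKM in Ras-induced libraries. The groups overlapped, and the spread among the control libraries was larger than the distance between the means. The log2 fold change was -0.20 with a 95% interval from -0.69 to 0.29 (adjusted p = 0.536 from limma). Its annotated antisense gene, MMP2-AS1, was listed at 0 in every library.

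MMP3 and MMP10 encode the stromelysins, which cut proteoglycans, laminin and fibronectin and help to activate the collagenase precursor. MMP3 (ENSG00000149968, chromosome 11 of GRCh37 from 102706532 to 102714340, minus strand) measured 15.5, 14.7 and 1.55 FPKM in control and 7.27, 20.0 and 11.2 FPKM in Ras-induced libraries. The groups overlapped, and control library 3 was far under the other 5 libraries. The coefficient of variation was 74.0% among controls and 50.7% among Ras-induced libraries, against 4.73% and 12.2% for MMP1. The log2 fold change was 0.56 with a 95% interval from -1.25 to 2.36 (adjusted p = 0.641 from limma), an interval that holds both a fall and a large rise. Without control library 3 the sign turned, to -0.33 (adjusted p = 0.612 from limma). MMP10 (ENSG00000166670, chromosome 11 of GRCh37 from 102641233 to 102651359, minus strand) measured 1.38, 1.99 and 0.639 FPKM in control and 2.01, 2.46 and 2.84 FPKM in Ras-induced libraries. The groups did not overlap, but control library 2 and Ras-induced library 1 were almost level. Its log2 fold change was 0.59 with a 95% interval from -0.01 to 1.20 (adjusted p = 0.156 from limma). Groups did not overlap for 6 of the 9 tested members and for 39.9% of all tested genes. All Ras-induced libraries lay above all controls for 5 members (27.1% of all tested genes) and below them for 1 (12.8%).

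TIMP1 (ENSG00000102265, chromosome X of GRCh37 from 47441807 to 47446188, plus strand) encodes a broad inhibitor of secreted MMPs that is weak against the membrane-type enzymes. It measured 390.5, 494.9 and 458.5 FPKM in control and 701.5, 999.8 and 836.7 FPKM in Ras-induced libraries. All Ras-induced libraries lay above all controls, though with a wider spread than those of MMP14. The rise had a log2 fold change of 0.91 (SE 0.15, limma adjusted p = 0.0124) and a ratio of means of 1.89. The call was lost without control library 1 (log2 fold change 0.81, adjusted p = 0.0584 from limma) and without Ras-induced library 3 (0.91, adjusted p = 0.0616 from limma).

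TIMP2 (ENSG00000035862, chromosome 17 of GRCh37 from 76849059 to 76921469, minus strand) encodes the inhibitor that also bridges MMP14 and the MMP2 precursor at the cell surface. It was the only member called lower. Its level was 267.1, 258.8 and 259.5 FPKM in control and 200.7, 192.1 and 188.3 FPKM in Ras-induced libraries. Each group was narrow, with a coefficient of variation of 1.75% among controls and 3.29% among Ras-induced libraries, the lowest of the 10 members in both groups. The log2 fold change was -0.43 (SE 0.07, limma adjusted p = 0.0094), a fall of the mean to 0.740 of the control mean, and it was called under all 13 alternatives. A short antisense gene, RP11-323N12.5, lies wholly within an exon of TIMP2, and all 367 of its exonic bases are shared. It was listed at 270.7 to 285.8 FPKM in control and at 203.5 to 228.7 FPKM in Ras-induced libraries, nearly the TIMP2 values, and without strand the reads of the pair cannot be told apart.

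TIMP3 (ENSG00000100234, chromosome 22 of GRCh37 from 33197691 to 33259028, plus strand) encodes the inhibitor that binds to the matrix and also blocks ADAM proteases. It measured 77.0, 79.6 and 114.2 FPKM in control and 118.0, 109.8 and 117.0 FPKM in Ras-induced libraries. Control library 3 lay among the Ras-induced libraries, so the groups overlapped, while the other controls were lower. The log2 fold change was 0.37 with a 95% interval from -0.0016 to 0.74 (adjusted p = 0.15 from limma). Without control library 3 it was 0.55 and passed the threshold (adjusted p = 0.0135 from limma).

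TIMP4 (ENSG00000157150, chromosome 3 of GRCh37 from 12194568 to 12200412, minus strand), an inhibitor with a narrow tissue range, measured 0.714, 0.618 and 0.931 FPKM in control and 0.928, 0.248 and 0.431 FPKM in Ras-induced libraries. The groups overlapped, and the mean of 0.645 FPKM was under the filter. The difference of means on log2(FPKM + 1) was -0.21 (exact permutation test, two-sided, p = 0.3, where the smallest p for 3 libraries against 3 is 0.1). Scaled to the depth of the first control library, its values were whole multiples, within 0.1, of a step of 0.0420 FPKM. They came to 17, 14 and 26 steps in control and to 25, 5 and 10 steps in Ras-induced libraries. If 1 step is 1 fragment, the level of TIMP4 rests on at most 26 fragments in a library.

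**Figure D2:**
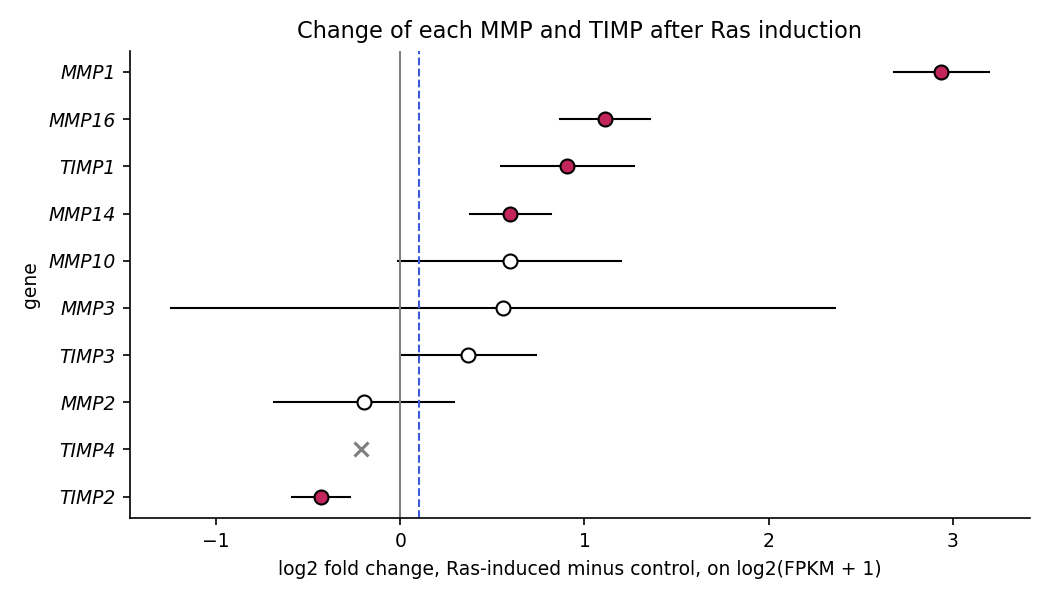
Log2 fold change of each member on log2(FPKM + 1), Ras-induced minus control, with 95% intervals from limma. Filled points are altered, open points did not pass the test, the cross is TIMP4, which was not tested, and the dashed line is the median of all tested genes at 0.10. The interval of MMP1 lies wholly to the right of those of the other tested members, that of MMP3 is the widest, from -1.25 to 2.36, and the interval of TIMP2 lies wholly under 0.

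The summed MMP level was higher relative to the summed TIMP level in every Ras-induced library, and without MMP1 the ratio of the sums overlapped between the groups. The 6 MMPs summed to 941.7, 992.4 and 998.3 FPKM in control and to 3377, 3959 and 4132 FPKM in Ras-induced libraries. The 4 TIMPs summed to 735.3, 833.9 and 833.2 FPKM in control and to 1021, 1302 and 1142 FPKM in Ras-induced libraries. The ratio of the MMP sum to the TIMP sum was 1.22 ± 0.0501 (SD, n = 3) in control and 3.32 ± 0.288 (SD, n = 3) in Ras-induced cells. With MMP1 left out of the sum, the ratio was 0.729 ± 0.0134 (SD, n = 3) in control and 0.682 ± 0.0508 (SD, n = 3) in Ras-induced cells, and the groups overlapped. MMP1 made up between 37.6% and 43.3% of the MMP sum in control libraries and between 77.9% and 81.0% in Ras-induced libraries. These sums combine members that were chosen with their changes known, so no test is attached to them.

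Among the inhibitors, TIMP1 stood further above TIMP2 in every Ras-induced library. The level of TIMP1 was 1.46, 1.91 and 1.77 times that of TIMP2 in the control libraries and 3.50, 5.20 and 4.44 times in the Ras-induced libraries. The share of TIMP2 in the TIMP sum was 36.3%, 31.0% and 31.1% in control and 19.7%, 14.8% and 16.5% in Ras-induced libraries. The ratio of MMP1 to TIMP1 was 0.891 ± 0.146 (SD, n = 3) in control and 3.63 ± 0.443 (SD, n = 3) in Ras-induced cells. For MMP14 and TIMP2, the protease and inhibitor that meet at the cell surface, the ratio was 1.57 ± 0.126 (SD, n = 3) and 3.22 ± 0.316 (SD, n = 3). The ratio of MMP2 to TIMP2, by contrast, was 0.599 ± 0.142 (SD, n = 3) and 0.702 ± 0.141 (SD, n = 3), and its groups overlapped. Transcript ratios do not measure the proteins or their activity.

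MMP10, MMP1 and MMP3 are neighbours in the MMP gene cluster of chromosome 11 and are read from the same strand, yet their levels and changes differed. In the annotation 8772 bases separate MMP10 from MMP1 and 37640 bases separate MMP1 from MMP3. In Ras-induced cells the mean of MMP1 was 3039 FPKM, while MMP3 measured 12.8 ± 6.51 FPKM (SD, n = 3) and MMP10 2.44 ± 0.412 FPKM (SD, n = 3). MMP8 and MMP27, next along the cluster, were too low to be tested. MMP8 measured 0.0507, 0 and 0 FPKM in control and 0.211, 0.435 and 0.156 FPKM in Ras-induced libraries, and MMP27 was at 0 in every library. The 95% interval of the log2 fold change of MMP1 (2.68 to 3.20) lay above those of MMP10 (-0.01 to 1.20) and MMP3 (-1.25 to 2.36).

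A transcribed pseudogene, WTAPP1 (ENSG00000255282, chromosome 11 of GRCh37 from 102617699 to 102707497), runs on the opposite strand across MMP10, MMP1 and the far end of MMP3. It was listed at 0, 0.268 and 0.137 FPKM in control and at 2.89, 2.93 and 2.87 FPKM in Ras-induced libraries. The groups were far apart. WTAPP1 passed the filter only through the Ras-induced libraries, so no test is attached to it. Of its 3331 exonic bases 223 are shared with MMP1, 32 with MMP3 and 0 with MMP10. Reads from the shared bases cannot be assigned to a strand, and their part in the WTAPP1 values was not tested. The authors' processing placed MMP1, MMP3, MMP10, WTAPP1 and 3 further entries in 1 joint locus of 7 genes. TIMP1, TIMP3 and TIMP4 lie inside the synapsin genes SYN1, SYN3 and SYN2, on the opposite strand. The synapsin genes were at most 0.582 FPKM in any library. TIMP1 and TIMP3 share 0 exonic bases with theirs, and TIMP4 shares 170 with SYN2. WTAPP1, the synapsin genes and the antisense genes above were chosen for their position, after values had been seen.

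**Figure D3:**
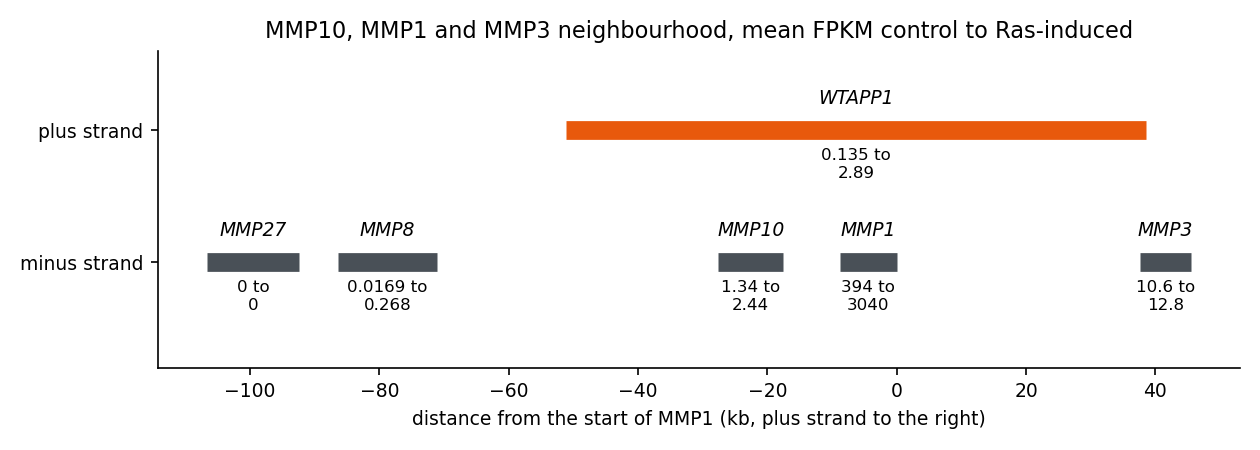
Gene bodies around MMP1, drawn to scale by distance in kb from its start, with genes of the minus strand in grey and WTAPP1 of the plus strand in orange. The numbers under each gene are its mean FPKM in control and in Ras-induced cells. MMP1 goes from 394.0 to 3039 FPKM (drawn rounded to 3 digits) and MMP10 beside it from 1.34 to 2.44 FPKM.

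Promoter sequences are shown for MMP10, MMP14 and TIMP1, to set the weakly expressed stromelysin beside a protease and an inhibitor that rose. They were taken from RefSeq, which held entries for 5 of the 10 members (MMP10, MMP14, TIMP1, TIMP3 and TIMP4); MMP1, MMP2, MMP3, MMP16 and TIMP2 had none in the table used. Each run gives the 150 bases before the RefSeq start, which for MMP14 and TIMP1 lies a little downstream of the gene start given above, 5′ to 3′ on the strand of the gene, and was matched to GRCh37 at chr11:102651360-102651509 (minus), chr14:23305644-23305793 (plus) and chrX:47441685-47441834 (plus). Capitals mark the letters of TGANTCA or TGAGTAA (forms of the AP-1 site), TATAAA (the TATA box) and GGGCGG (the GC box bound by Sp1), searched on both strands.
MMP10: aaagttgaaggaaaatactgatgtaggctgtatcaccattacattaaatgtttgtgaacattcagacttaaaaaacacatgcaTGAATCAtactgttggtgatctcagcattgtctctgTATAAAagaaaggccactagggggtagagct
MMP14: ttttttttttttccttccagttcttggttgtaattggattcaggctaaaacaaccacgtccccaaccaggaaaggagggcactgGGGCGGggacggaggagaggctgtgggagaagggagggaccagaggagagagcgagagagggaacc
TIMP1: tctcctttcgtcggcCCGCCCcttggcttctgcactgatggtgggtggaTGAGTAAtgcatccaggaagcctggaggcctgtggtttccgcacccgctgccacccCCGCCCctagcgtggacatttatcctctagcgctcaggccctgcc
MMP10 held TGANTCA at -67 to -61 and TATAAA at -31 to -26 from the start. TIMP1 held TGAGTAA at -101 to -95 and the GC box, read on the other strand, at -135 to -130 and at -45 to -40. MMP14 held the GC box at -66 to -61 and no match to the other motifs. The GC box was also matched 3 times for TIMP3 and 1 time for TIMP4. Among 35116 promoters of the same length, 4.17% held TGANTCA, 1.26% TGAGTAA, 6.71% TATAAA and 36.8% GGGCGG. A match describes letters only, and binding was not measured.

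Genes that act with the members moved in both directions. Of the 47 tested genes in 4 pathway lists 26 were altered, 10 higher and 16 lower, where 16.7% of all tested genes were. The 26 and the 16 include ELN, which passed the filter only through its control libraries. These lists were chosen with earlier results of these data known. Of the 26 calls, 7 held whichever library was left out, and none changed sign. Leaving out a library gave 13 calls without control library 1, 9 without control library 2, 11 without Ras-induced library 1 and 13 without Ras-induced library 3, and 20 without control library 3 and likewise without Ras-induced library 2.

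Of the other 17 MMP genes only 4 were tested, and 12 were under 1 FPKM in both groups. MMP11, MMP17 and MMP24 did not pass the test. MMP19, a secreted MMP, measured 13.2, 12.2 and 14.2 FPKM in control and 9.93, 8.86 and 7.39 FPKM in Ras-induced libraries. Its log2 fold change was -0.55 (adjusted p = 0.0298 from limma), but the call was lost whichever library was left out, with adjusted p-values up to 0.0992. MMP23B, under the filter and near-identical to MMP23A, so that its reads may be split, measured 1.37, 1.69 and 0.942 FPKM in control and between 0.142 and 0.346 FPKM in Ras-induced libraries (exact permutation test, two-sided, p = 0.1, the smallest possible). With the filter lowered to 0.1 FPKM its log2 fold change was -0.88 (adjusted p = 0.0208 from limma), and with no filter the adjusted p from limma was 0.0408. MMP19 and MMP23B were named after their values were seen.

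Among activators and inhibitors of MMPs, 14 of 16 genes were tested, 3 were higher and 5 lower (11.0% and 5.67% of all tested genes), with a median log2 fold change of -0.10 (0.10 over all tested genes). PCSK7, a proprotein convertase, fell from between 72.5 and 84.3 FPKM in control to between 28.2 and 38.4 FPKM (log2 fold change -1.24, adjusted p = 0.00326 from limma). A2M, a plasma protease inhibitor that traps MMPs, fell from 4.26 ± 1.40 to 1.28 ± 0.381 FPKM (SD, n = 3; log2 fold change -1.19, adjusted p = 0.0248 from limma). TFPI2, a serine protease inhibitor of the matrix, rose from 50.9 ± 13.0 to 108.5 ± 2.84 FPKM (SD, n = 3; log2 fold change 1.11, adjusted p = 0.0101 from limma). Further calls, named after their values were seen, included falls of RECK and LRP1 and rises of FURIN and PLAUR, with log2 fold changes between -0.90 and 0.48. Both rises were lost under upper-quartile scaling. The calls of LRP1 and FURIN were lost whichever library was left out, that of PLAUR in 5 of the 6 such fits and that of RECK without control library 2. A2M passed only without control library 3 when 1 library was left out, and the TFPI2 call was lost without Ras-induced library 3 (adjusted p = 0.0517 from limma).

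Of 16 genes of matrix proteins that MMPs cut, all tested, 8 were lower and 2 higher in Ras-induced cells (5.67% and 11.0% of all tested genes), and their median log2 fold change was -1.28. DCN, the gene of the collagen-binding proteoglycan decorin, fell from 251.0 ± 77.1 to 24.7 ± 3.70 FPKM (SD, n = 3; log2 fold change -3.26, adjusted p = 0.0013 from limma). The basement membrane genes COL4A1 and HSPG2 fell as well, with log2 fold changes of -1.74 and -1.65 (adjusted p = 0.0269 and 0.00384 from limma). LAMA4 and LAMB1, laminin chains, were the genes that rose, with log2 fold changes of 1.20 and 0.41. COL1A1, a main substrate of MMP1, had a log2 fold change of -1.43 that narrowly missed the threshold (adjusted p = 0.0501 from limma), and FN1 was almost level at 0.02 (adjusted p = 0.94 from limma). LAMA4, LAMB1, COL1A1 and FN1 were named after their values were seen. The number of substrates called lower lay between 2 and 10 when 1 library was left out. HSPG2, DCN and LAMA4 kept their calls in all 6 such fits, and COL4A1 (adjusted p up to 0.108 from limma) and LAMB1 (up to 0.084) in 2 each. LAMB1 also lost its call under upper-quartile scaling. ELN, the gene of elastin, measured between 5.45 and 38.7 FPKM in control and between 0.101 and 0.470 FPKM in Ras-induced libraries. It is counted among the 8 lower genes but passed the filter only through its control libraries, so no test is attached to it. COL1A1 and COL1A2 also belong to the fibroblast markers, of which 3 of 8 were lower.

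AP-1 and ETS factors, which are known to bind MMP and TIMP promoters downstream of Ras, changed in both directions as well. Of 13 tested genes 5 were higher and 2 lower (11.0% and 5.67% of all tested genes), and the median log2 fold change was 0.36. JUNB rose from 1.27 ± 0.693 to 5.10 ± 2.40 FPKM (SD, n = 3; log2 fold change 1.40, adjusted p = 0.0355 from limma). ETV1 rose from 17.6 ± 2.41 to 38.8 ± 7.06 FPKM (SD, n = 3; log2 fold change 1.09, adjusted p = 0.00879 from limma). FOSL1, the most abundant of the listed FOS and JUN genes in control cells, fell from 271.4 ± 28.5 to 119.6 ± 15.7 FPKM (SD, n = 3; log2 fold change -1.18, adjusted p = 0.00366 from limma). FOSL2 fell by 1.14 on the log2 scale (adjusted p = 0.0318 from limma). The calls of FOSL1 and ETV1 held whichever library was left out, JUNB kept its call in 2 of the 6 such fits and FOSL2 in 1.

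The genes with the profile closest to a member over the 6 libraries were found by the root mean square difference of centred log2(FPKM + 1) values. For MMP1 these were CHST2, LINC00973 and NTSR1, at 0.140, 0.213 and 0.229. CHST2, a sulfotransferase, measured 2.93 FPKM in control and 24.3 FPKM in Ras-induced cells in the mean. For MMP2, whose control library 3 was the highest, the closest genes were NRP2, TIFA and MECOM, at 0.0561, 0.0645 and 0.0672. For TIMP3 they were IFT172, TSPAN6 and RP11-867G23.12, at 0.0455, 0.0461 and 0.0570. No gene came as near to MMP3, for which RP11-144C9.1, USMG5P1 and RNA5SP383 differed by 0.423, 0.432 and 0.504. With 6 libraries from 2 groups these distances are a description.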

How the data were processed

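Poly(A) RNA of 6 libraries was sequenced on a NextSeq500. Per the labels and the study's methods the authors trimmed reads with Trim Galore 0.3.0, aligned them to hg19 with TopHat2 and deposited gene FPKM values from Cufflinks with Ensembl annotation. Columns of the authors' comparison (group FPKM, log2 fold change, statistic, p and q) and 18 unnamed columns were not used. Of 63129 gene rows, 120 with more values than libraries were left out. Coordinates are from GENCODE lifted to GRCh37. Genes averaging 1 FPKM or more were compared as log2(FPKM + 1) with limma 3.58.1 (trend; R 4.3.3), Benjamini-Hochberg over 13993 genes. The method was tested on simulated data. Members and lists were chosen with earlier results of these data known. The rule for naming genes took all members, altered list genes that moved by 1 or more on the log2 scale (at most 4 per list), HRAS and the 3 closest profiles of 4 members; other genes were named for their position, as markers or after their values were seen. Of the list results 1 is counted but not reported here. The study describes independent repeats of the experiment, and p-values measure the spread between these libraries. Alternatives were another pseudocount, filters, scalings, no trend, a replicate block and each library left out. Absolute depth is unknown.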

Additional observations from a re-analysis of the deposited data

How the results depend on the processing

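Of 119 values of single members under 13 alternatives, 114 kept direction and side of the threshold, 3 lost the call, 1 gained it and 1 turned sign (MMP3, -0.33 without control library 3, and up to 1.02 without control library 1). The causes were not tested, except that a left-out library leaves fewer samples. Altered genes numbered 2336 (1543 higher, 793 lower), 1518 (960 higher) with no filter, 548 (311 higher, 237 lower) when a move of 1 or more on the log2 scale was also required, and 860 to 1872 (519 to 1162 higher, 335 to 710 lower) with 1 library left out. Quantile normalization gave 1044 higher and 1109 lower, and upper-quartile scaling 921 higher and 1101 lower, so that 48.5% and 45.5% of calls were higher in place of 66.1%; the median of all log2 fold changes went from 0.10 to 0.01 and 0.00467. Altered members numbered 5 (4 higher, 1 lower), 2 (2 higher, 0 lower) with the fold limit, and 3 to 6 (2 to 5 higher, 1 lower) with 1 library left out. Altered genes of the pathway lists numbered 26, 17 with no filter and 9 to 20 with 1 library left out. Other MMPs called lower numbered 1, 2 with a filter of 0.1 FPKM, and 0 with 1 library left out. MMP regulators called higher numbered 3, 1 with no filter, 1 with upper-quartile scaling, 1 without the trend and 0 to 2 with 1 library left out; those called lower numbered 5, 3 with no filter and 1 to 4. Matrix substrates called higher numbered 2, 1 with upper-quartile scaling and 1 to 2 with 1 library left out; those called lower numbered 8 and 2 to 10. AP-1 and ETS factors called higher numbered 5, 3 with no filter and 2 to 5; those called lower numbered 2, 1 with no filter and 1 to 2. Correlations of deviations lay between -0.00266 and 0.0481 (mean 0.0296) for the 3 pairs of libraries with the same number. For the 6 pairs with different numbers they lay between -0.0679 and 0.0311 (mean -0.0148). No sample label carries these numbers, so these values do not settle whether libraries were paired. A replicate block gave 2310 altered genes (1466 higher, 844 lower), 5 altered members, 28 altered list genes and 0 other MMPs called lower, with the calls of MMP19, LRP1 and PLAUR lost. Without read counts, precision at low FPKM, as for TIMP4 and MMP10, could not be set.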
